A study of Mus musculus with 8 samples.

Results

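The CXCR2 ligands and platelet factor 4 are small secreted chemokines whose genes lie in 1 cluster on mouse chromosome 5. The members were Cxcl1, Cxcl2, Cxcl3, Cxcl5, Ppbp (also called Cxcl7) and Pf4, 6 of the 18193 genes that the arrays measured with a probe set of 1 gene symbol. Every probe set annotated to exactly 1 of these symbols was taken, 8 of 45037 probe sets tested: 3 for Cxcl1 and 1 for each other member. For Cxcl1 the main probe set was selected on its mean log2 signal over the 8 arrays, the highest of the 3, so that its being the brightest is no finding, and the other 2 are given beside it. The family itself was chosen with treatment results of these arrays known.

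RNA came from mouse bone marrow-derived dendritic cells (BMDCs), grown from the marrow of 6-week-old female BALB/c mice over 9 days in GM-CSF. The sample labels put GM-CSF at 200 U/mL, and the study's methods give a higher concentration. Cells that stuck to the plate were not used. The groups were [BF/S+L/Ep] at 12 h, DMSO at 12 h, [BF/S+L/Ep] at 4 h and DMSO at 4 h, with 2 arrays each and 8 in all. [BF/S+L/Ep] is the butanol fraction of a stem and leaf extract of Echinacea purpurea, given at 75 μg/mL in DMSO. All cells saw the solvent, which was 0.1% in the DMSO groups, and no group was left without treatment, so a change between 4 h and 12 h in DMSO is one of time in culture under solvent. The labels number the arrays of a group as replicates and the paper calls them biological replicates of the culture. No source used here says whether they came from different mice, so p-values measure the spread between these arrays. In such bulk samples fewer cells of a type and less RNA per cell cannot be told apart.

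Values are MAS5 signals on the linear scale, scaled by the authors so that each array had a trimmed mean of 500. The median signal of an array lay between 86.4 and 103.7. As a background reference, the signals of 84 olfactory, vomeronasal and taste receptor probe sets were used, whose 95th percentile lay at 66.6 to 106.9 over the arrays. A group with neither array above its own value is called under the reference. Between 48.8% and 54.9% of probe sets lay above it. Markers of the labelled cell type were read: all 9 conventional DC genes exceeded the reference on 4 or more arrays, as did 23355 of the 45037 probe sets tested. Among the 9 were Itgax, the CD11c chain, at 13920 to 19541 and Cd74, the MHC class II invariant chain, at 50036 to 57296. Flt3 was the dimmest, at 36.9 to 145.1, and above the reference on 6 of 8 arrays. Of 9 macrophage genes, 8 were above it on all 8 arrays, so these signals do not tell the 2 cell types apart.

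Chemokines with the ELR motif before their first cysteines, such as CXCL1, CXCL2, CXCL3, CXCL5 and PPBP, bind the receptor CXCR2 and draw neutrophils. Mouse Cxcl1 and Cxcl2 are classic early targets of NF-κB in macrophages and dendritic cells. PPBP and PF4 are stored in the alpha granules of platelets, and the neutrophil-activating form of PPBP is cut from a longer precursor. PF4 lacks the ELR motif, binds heparin and related glycosaminoglycans, and is not a CXCR2 ligand.

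In the RefSeq annotation of GRCm38.p6 all 6 genes, with Cxcl15 between Cxcl3 and Cxcl1, fall within 146.6 kb of chromosome 5, on the plus strand for the 5 with a promoter in the table used: Cxcl5 at 90759298 to 90761625, Ppbp at 90768518 to 90770063, Pf4 at 90772435 to 90773383, Cxcl3 at 90786101 to 90788093, Cxcl1 at 90891245 to 90893121 and Cxcl2 at 90903899 to 90905938. The 100 bases before the annotated start are shown for these 5 genes because Cxcl2, Cxcl3 and Ppbp differed with both treatment and time while Pf4 differed less. Capitals mark the NF-κB core GGAATTTCC and the TATA box TATAAA, and all are printed 5′ to 3′ from RefSeq.
Cxcl1: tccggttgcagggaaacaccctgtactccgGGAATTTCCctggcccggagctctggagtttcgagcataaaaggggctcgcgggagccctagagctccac
Cxcl2: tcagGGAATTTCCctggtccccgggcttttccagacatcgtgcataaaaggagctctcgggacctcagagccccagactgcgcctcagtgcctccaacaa
Cxcl3: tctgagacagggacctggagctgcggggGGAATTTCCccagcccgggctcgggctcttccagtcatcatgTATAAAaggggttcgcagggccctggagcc
Ppbp: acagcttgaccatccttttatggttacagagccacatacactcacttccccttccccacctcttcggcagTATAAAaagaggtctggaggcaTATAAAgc
Pf4: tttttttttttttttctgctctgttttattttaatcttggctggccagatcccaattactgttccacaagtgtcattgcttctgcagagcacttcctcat

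The windows span chr5:90891145-90891244 for Cxcl1, chr5:90903799-90903898 for Cxcl2, chr5:90786001-90786100 for Cxcl3, chr5:90768418-90768517 for Ppbp and chr5:90772335-90772434 for Pf4. Over the 250 bases before the start, searched on both strands, GGAATTTCC stood in 3 of the 5 promoters, Cxcl1, Cxcl2 and Cxcl3, and in 0.286% of the 32851 promoters of the table. Its first base lay 70 bases before the start in Cxcl1, 96 in Cxcl2 and 72 in Cxcl3. The TATA box was found in Cxcl3 and in Ppbp, which holds it at 30 and again at 8 bases before the start, and in 12.4% of all promoters. Only the exact letters TATAAA were searched, and the printed windows of Cxcl1 and Cxcl2 hold the near match CATAAA. The AhR core GCGTG was found only in Cxcl2 among the 5, at 172 and 165 bases before the start, against 28.2% of all promoters. None of the 3 motifs was found in Pf4, which says only that these letters are not in this window. No 2 matches overlapped. Under a global alignment the 100 bases of Cxcl3 and Cxcl1 were 64.6% identical, those of Cxcl1 and Cxcl2 52.0%, and the other 8 pairs between 39.8% and 48.8%. The motifs were chosen after the promoters had been read, and a match is a description of letters, not of a bound site.

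**Figure D1:**
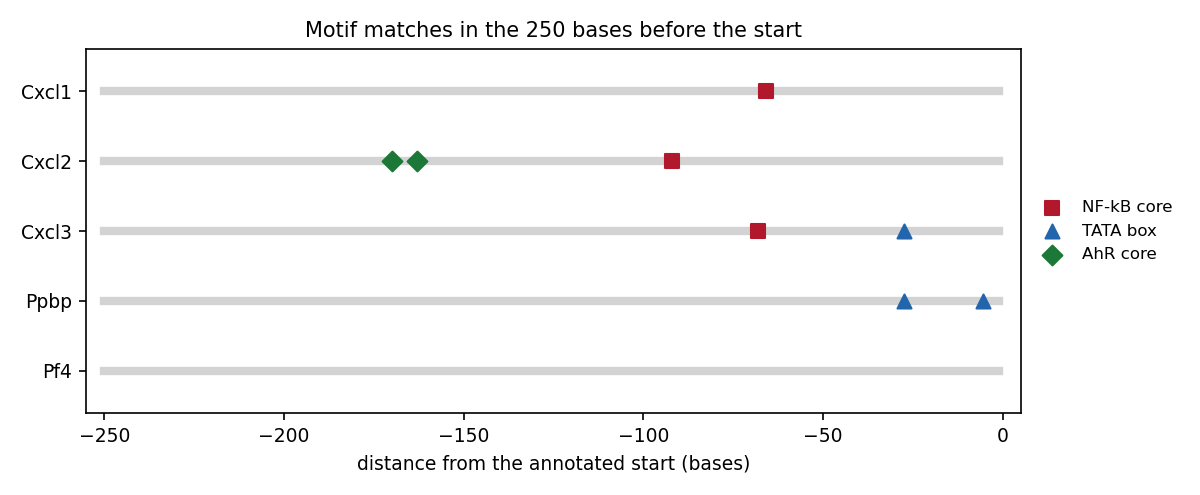
Matches to 3 motifs in the 250 bases before the annotated start of 5 members, with distance from the start in bases on the x axis and 1 line per gene. Squares (NF-κB core) stand on the lines of Cxcl1, Cxcl2 and Cxcl3, 62 to 96 bases before the start, and the lines of Ppbp and Pf4 hold none, the line of Pf4 having no match to any motif.

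Ppbp, Cxcl3 and Cxcl2 passed the test both for the extract, averaged over the times, and for time. Averaged over both times, [BF/S+L/Ep] gave higher Ppbp, Cxcl3 and Cxcl2 signals than DMSO, by 2.40, 2.01 and 1.79 times, and in both treatments the 3 were 2.76 to 4.45 times higher at 12 h than at 4 h. Pf4 and the brightest Cxcl1 probe set were 1.06 to 1.27 times their DMSO signals with [BF/S+L/Ep] and were not called. Cxcl5 was above the background reference only with extract at 12 h. All differences below come from 1 limma fit with an intensity trend to the log2 signals of the 8 arrays, two-sided, with p-values adjusted over all 45037 probe sets and a threshold of 0.05. Without the intensity trend that fit called 0 probe sets in each contrast.

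Ppbp encodes the precursor of the CXCR2 ligand NAP-2. At 12 h its signal was 6541.9 and 6306.5 with [BF/S+L/Ep], against 2405.1 and 2233.1 in DMSO. At 4 h it was 1693.5 and 1592.3 with [BF/S+L/Ep], against 638.5 and 980.2 in DMSO. The extract arrays were above the DMSO arrays at both times, and the 2 DMSO arrays at 4 h were the farthest apart. The difference was 1.47 on the log2 scale at 12 h (95% interval 1.12 to 1.82, ratio 2.77, limma adjusted p = 0.00853) and 1.05 at 4 h (0.70 to 1.40, ratio 2.08, adjusted p = 0.116). The call at 12 h was lost with any 1 of the 4 arrays at 12 h left out (adjusted p 0.111 to 0.165), while the difference stayed between 1.42 and 1.52. At 4 h the difference depended on the DMSO arrays: it was 0.74 without DMSO replicate 1 (adjusted p = 0.386) and 1.36 without DMSO replicate 2 (adjusted p = 0.0375), where it was called.

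Cxcl3 encodes a CXCR2 ligand close to CXCL2 in sequence. At 12 h it had signals of 10315.6 and 8535.0 with [BF/S+L/Ep], against 6333.4 and 4751.7 in DMSO. At 4 h the signals were 3419.6 and 3377.6 with [BF/S+L/Ep], against 1424.3 and 1462.0 in DMSO. The groups did not overlap at either time, and the arrays of a group lay closer at 4 h than at 12 h. The difference was 1.24 on the log2 scale at 4 h (0.94 to 1.53, ratio 2.36, limma adjusted p = 0.0133) and 0.77 at 12 h (0.48 to 1.07, ratio 1.71, adjusted p = 0.113). At 4 h the call was lost with any 1 of the 4 arrays at that time left out (adjusted p 0.0813 to 0.222).

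Cxcl2, or MIP-2, is a CXCR2 ligand of activated macrophages. Its signal at 12 h was 9162.1 and 7399.5 with [BF/S+L/Ep], against 4492.8 and 4202.3 in DMSO. At 4 h it was 1912.0 and 1787.7 with [BF/S+L/Ep], against 1032.4 and 1155.5 in DMSO. Every extract array was thus above both DMSO arrays of its time. The difference was 0.92 at 12 h (0.66 to 1.18 on the log2 scale, ratio 1.90, limma adjusted p = 0.0276) and 0.76 at 4 h (0.50 to 1.02, ratio 1.69, adjusted p = 0.118). The call at 12 h was lost without either DMSO array at 4 h (adjusted p = 0.1 and 0.104) and without any single array at 12 h (0.0903 to 0.284).

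Over the members, treatment called 1 of 6 higher at 4 h (Cxcl3; background 0.00444% of all probe sets), 2 of 6 at 12 h (Ppbp and Cxcl2; 0.0155%) and 3 of 6 in the average of both times (0.0888%). No member was called lower. In the average, the differences were 1.26 for Ppbp (adjusted p = 0.000693), 1.01 for Cxcl3 (adjusted p = 0.00108) and 0.84 for Cxcl2 (adjusted p = 0.00194) by limma. The 3 were called in the average with each of the 8 arrays left out in turn. The medians of the 5 members other than Cxcl5, which is mostly under the reference, were 0.76, 0.77 and 0.84 on the log2 scale at 4 h, at 12 h and in the average, beside -0.02, -0.03 and -0.02 over all probe sets. Since the family was picked with treatment results known, these counts are no independent support for them.

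**Figure D2:**
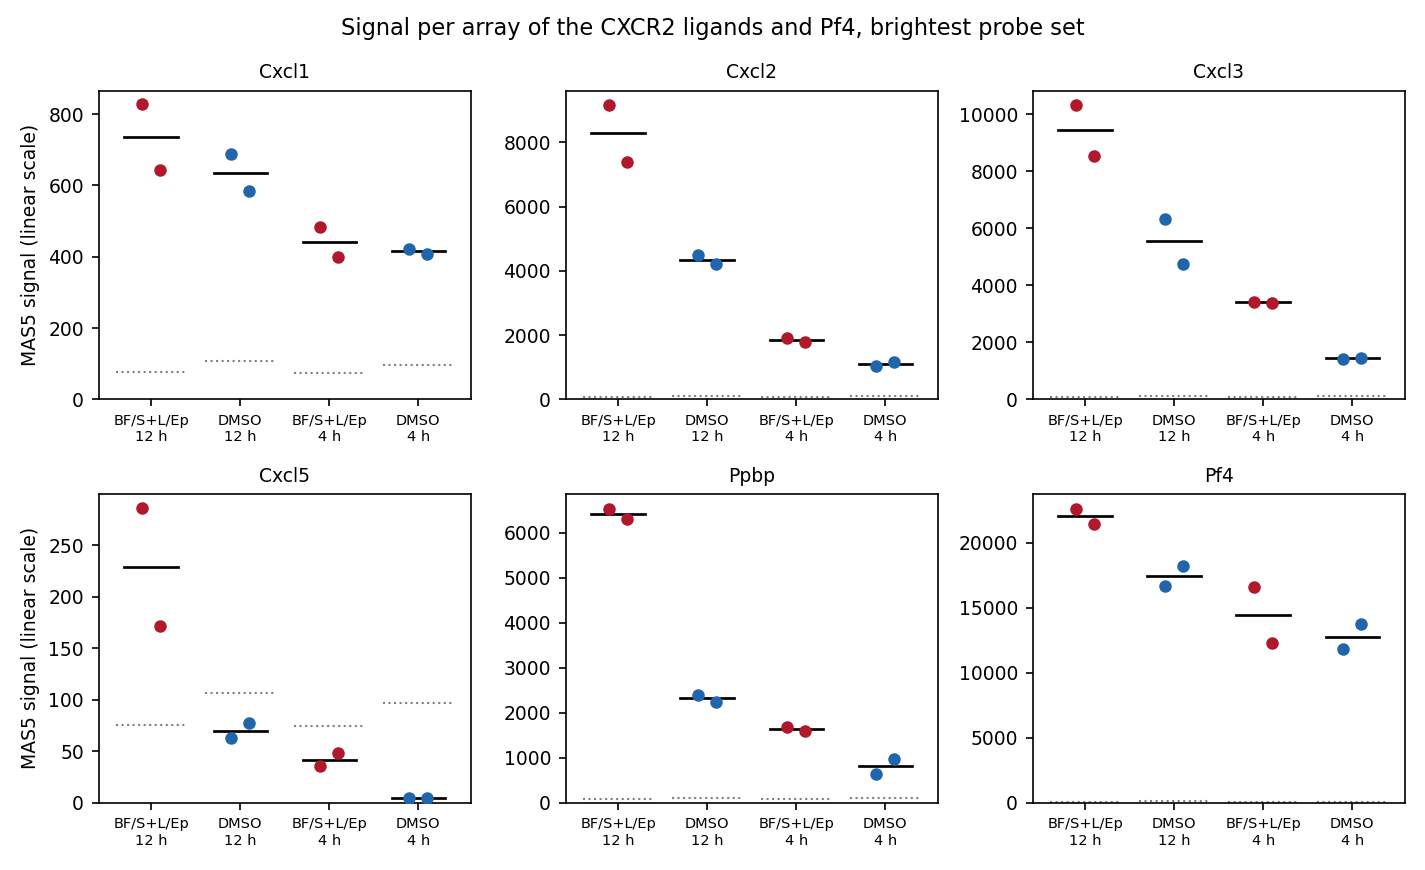
MAS5 signal (linear scale, each panel with its own axis from 0) of the main probe set of each member in the 4 groups. Points are the 2 arrays of a group, black bars their mean, and dotted lines the higher of the 2 arrays' background references. Cxcl2, Cxcl3 and Ppbp are higher with [BF/S+L/Ep] than with DMSO at each time and higher at 12 h than at 4 h, and Cxcl5 is above its reference in 1 group.

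Pf4 encodes platelet factor 4, which is also made by macrophages. At 12 h it had 22607.0 and 21446.4 with [BF/S+L/Ep], against 16662.4 and 18170.8 in DMSO. At 4 h it had 16608.4 and 12269.7 with [BF/S+L/Ep], against 11816.1 and 13718.3 in DMSO. The groups overlapped at 4 h and not at 12 h. The treatment difference was 0.34 at 12 h (0.04 to 0.64, limma adjusted p = 0.79) and 0.17 at 4 h (-0.13 to 0.46, adjusted p = 1), so intervals left no more than 1.56-fold at 12 h and 1.38-fold at 4 h.

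Cxcl1, or KC, is the mouse CXCR2 ligand most used as a marker of neutrophil recruitment. At its main probe set (1441855_x_at) it had 828.9 and 643.4 at 12 h with [BF/S+L/Ep], against 687.1 and 584.1 in DMSO. At 4 h that probe set had 482.7 and 400.1 with [BF/S+L/Ep], against 421.8 and 408.3 in DMSO. The groups overlapped at both times. The treatment difference was 0.21 at 12 h (-0.19 to 0.60, limma adjusted p = 0.927) and 0.08 at 4 h (-0.31 to 0.48, adjusted p = 1). The other probe sets did not overlap between treatments at either time. At 1457644_s_at the signal was 947.1 and 968.3 with [BF/S+L/Ep] against 554.0 and 588.3 in DMSO at 12 h, and 253.5 and 241.5 against 204.2 and 177.4 at 4 h. At 1419209_at it was 1138.6 and 913.7 with [BF/S+L/Ep] against 647.2 and 617.3 in DMSO at 12 h, and 231.0 and 200.2 against 176.8 and 139.1 at 4 h. These differences were 0.75 (0.36 to 1.13) and 0.69 (0.25 to 1.13) at 12 h and failed the adjusted threshold (limma adjusted p = 0.383 and 0.569). The suffixes x and s of the array design mark probe sets whose probes can match more than 1 transcript; which transcripts these probes match was not tested.

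**Figure D3:**
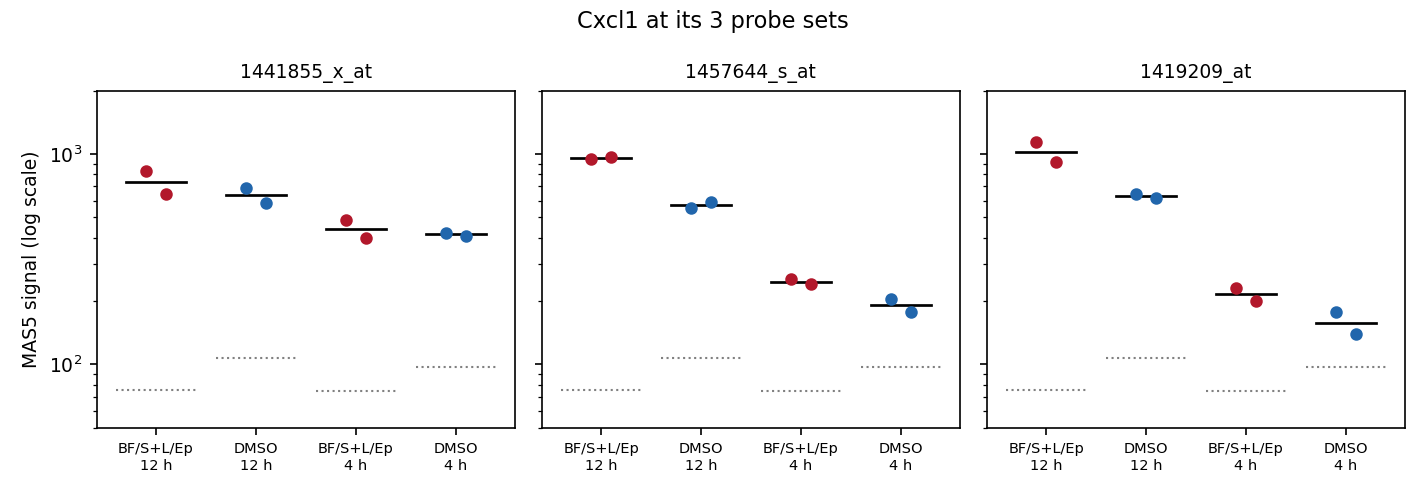
MAS5 signal of Cxcl1 (log scale) at each of its 3 probe sets, with points for the 2 arrays of a group, bars for their mean and dotted lines for the higher background reference. The main probe set, on the left, changes least between 12 h and 4 h, while the other 2 are 3.0 to 4.7 times higher at 12 h.

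Cxcl5, or LIX, is a CXCR2 ligand best known from epithelium and platelets. At 12 h it had 285.7 and 171.2 with [BF/S+L/Ep], against 63.2 and 77.1 in DMSO. At 4 h it had 35.8 and 48.0 with [BF/S+L/Ep], against 4.8 and 4.8 in DMSO. Only [BF/S+L/Ep] at 12 h was above the background reference (75.2 and 75.9 on those arrays), and the DMSO arrays at 12 h, with references of 106.9 and 81.2, came close to it on the second array alone. That status depends on the receptor probe sets used: the second DMSO array at 12 h was above the reference in 5 of the 84 references that each leave out 1 probe set, the lowest of which was 66.9, an alternative chosen after seeing the data. Taking the reference as a floor, the mean signal at 12 h was 2.37-fold higher with [BF/S+L/Ep] than with DMSO. That fold is a lower bound for the means of these arrays and has no interval. Without the floor the ratio was 3.168 (interval 0.9887 to 10.15, limma adjusted p = 0.837), and this interval includes no difference. No fold is given at 4 h, where both groups were under the reference.

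The time differences used the same arrays and are set out within each treatment. Between 12 h and 4 h, 4 of 6 members were called higher in [BF/S+L/Ep] (background 1.55%) and 4 of 6 in DMSO (background 1.18%). The medians of the 5 members other than Cxcl5 were 1.47 and 1.55 on the log2 scale, beside 0.02 and 0.03 over all probe sets. In [BF/S+L/Ep] the members called were Cxcl2, Ppbp, Cxcl3 and Pf4, and in DMSO Cxcl2, Cxcl3, Ppbp and Cxcl5, but for Cxcl5 both DMSO groups were under the background reference, so that its adjusted p of 0.0204 is that of signals with no measured fold, or against 5 of the 84 references without 1 probe set, of a comparison in which 1 of the 2 DMSO arrays at 12 h was measured. That call was also lost without any 1 of the 4 DMSO arrays or either [BF/S+L/Ep] array at 12 h (adjusted p 0.0508 to 0.15).

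Cxcl2 was 4.45-fold higher at 12 h than at 4 h in [BF/S+L/Ep] (2.15 on the log2 scale, 1.89 to 2.42, limma adjusted p = 1.57e-06) and 3.98-fold higher in DMSO (1.99, 1.73 to 2.25, adjusted p = 2.04e-06). Cxcl3 was 2.76-fold higher in [BF/S+L/Ep] (1.47, 1.17 to 1.76, adjusted p = 5.48e-05) and 3.80-fold higher in DMSO (1.93, 1.63 to 2.22, adjusted p = 6.33e-06). Ppbp was 3.91-fold higher in [BF/S+L/Ep] (1.97, 1.62 to 2.32, adjusted p = 2e-05) and 2.93-fold higher in DMSO (1.55, 1.20 to 1.90, adjusted p = 0.000162). The 12 h arrays of these 3 genes did not overlap with the 4 h arrays of the same treatment, and the calls held with each array left out in turn. Pf4 rose by 1.54-fold in [BF/S+L/Ep] (0.63, 0.33 to 0.92, limma adjusted p = 0.0282), and this call was lost with 7 of the 8 arrays left out singly (adjusted p 0.053 to 0.216, difference 0.41 to 0.66), all but [BF/S+L/Ep] replicate 1 at 4 h. In DMSO Pf4 was 1.37-fold higher (0.45, 0.15 to 0.75, adjusted p = 0.145), and a call appeared without either [BF/S+L/Ep] array at 4 h (adjusted p = 0.0369 and 0.037).

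At its main probe set Cxcl1 was 1.66-fold higher at 12 h in [BF/S+L/Ep] (0.73, 0.34 to 1.13, limma adjusted p = 0.0502) and 1.53-fold higher in DMSO (0.61, 0.22 to 1.0, adjusted p = 0.131). The other probe sets rose by more: 1457644_s_at by 3.87-fold in [BF/S+L/Ep] (adjusted p = 4.93e-05) and 3.0-fold in DMSO (adjusted p = 0.000344), and 1419209_at by 4.74-fold in [BF/S+L/Ep] (adjusted p = 4.74e-05) and 4.03-fold in DMSO (adjusted p = 0.000134) by limma. Counted by either of these, 5 of 6 members were called in each treatment. Cxcl5 in [BF/S+L/Ep] was 3.13-fold higher at 12 h than at 4 h with the reference as a floor, a lower bound for the means of these arrays with no interval. Without the floor the ratio was 5.335 (interval 1.665 to 17.1, limma adjusted p = 0.143), and it was not called.

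The treatment differences at 12 h minus those at 4 h, which are also the differences of the time effects, called 0 of 6 members. The same contrast called 0 of all 45037 probe sets (0%), with 760 positive and 887 negative at an unadjusted p under 0.05 in limma. For Cxcl3 the difference was -0.46 (-0.88 to -0.05, unadjusted p = 0.0322, adjusted p = 1), and it ranged from -0.67 without DMSO replicate 2 at 12 h to -0.25 without DMSO replicate 1 at 12 h. For Ppbp it was 0.42 (-0.08 to 0.91, adjusted p = 1), and it ranged from 0.11 without DMSO replicate 2 at 4 h to 0.73 without DMSO replicate 1 at 4 h. For Cxcl2, Pf4 and Cxcl1 the intervals were -0.21 to 0.53, -0.25 to 0.60 and -0.43 to 0.68. For Cxcl5 at least 1 group of each comparison was under the reference, so it is not read.

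**Figure D4:**
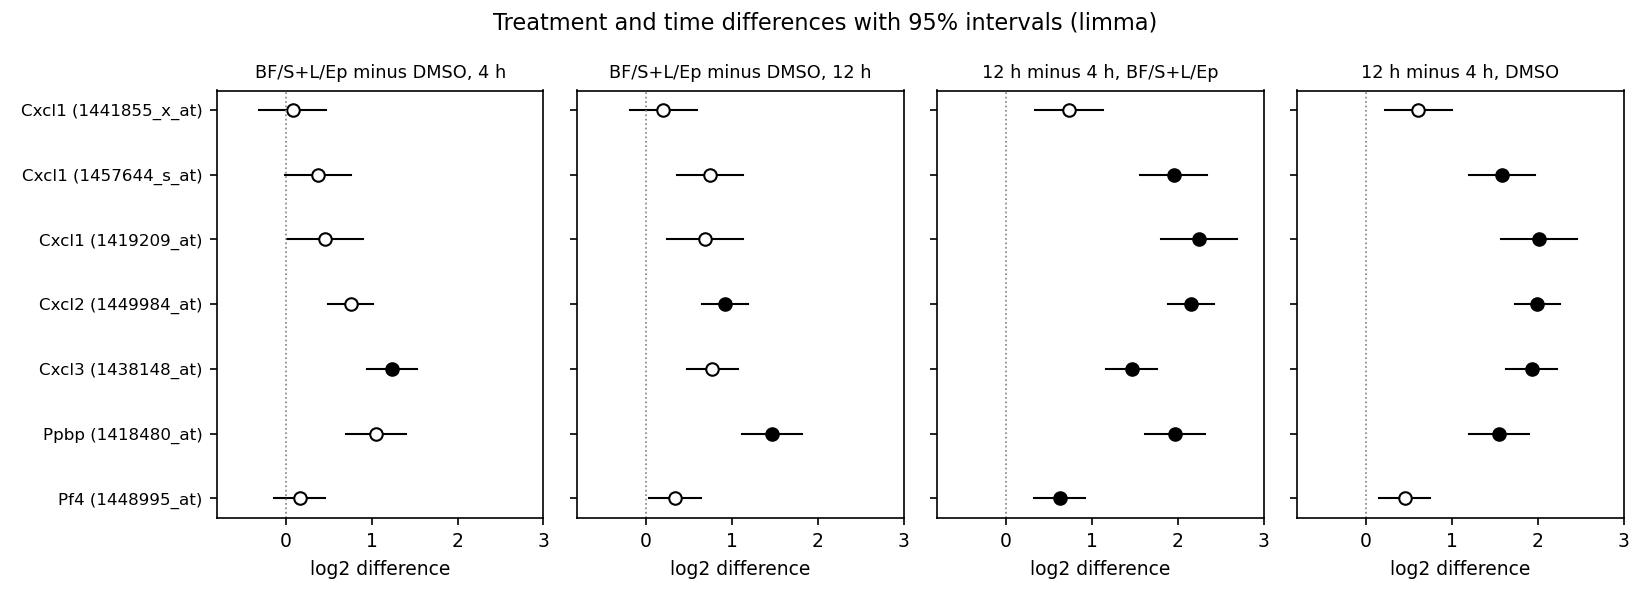
Log2 differences (x axis) at the main probe set of 5 members and the other 2 Cxcl1 probe sets, with 95% intervals as bars; filled points have an adjusted p under 0.05 in limma. Cxcl5 is left out, being under the reference in 3 groups. The time differences of Cxcl2, Cxcl3 and Ppbp lie between 1.47 and 2.15, their treatment differences between 0.76 and 1.47.

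Within each gene the conditions had the order DMSO 4 h, [BF/S+L/Ep] 4 h, DMSO 12 h, [BF/S+L/Ep] 12 h for the mean signals of Cxcl2, Cxcl3, Ppbp, Cxcl1 and Pf4. Cxcl5 has no such order, being above the reference in 1 group. For Cxcl2, Cxcl3 and Ppbp no 2 neighbours in this order overlapped. The share of all probe sets with groups that do not overlap was not counted. Separation of groups, here and above, therefore only describes the printed signals. Pf4 overlapped between the 2 treatments at 4 h, and Cxcl1 at its main probe set overlapped between the 2 treatments at both times.

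The signals that surround the family were read next from lists of related genes. CXCR2, the receptor, was at 5.2 to 35.5, under the reference on all 8 arrays, and Cxcr3, Ackr1 and Ackr3, the other 3 of 5 listed receptors measured, were called in 0 contrasts. Of the 9 other CXC chemokines, Cxcl13, which draws B cells through CXCR5, was called by treatment in the average (0.75, limma adjusted p = 0.0112). Over time 3 of the 9 were called higher in [BF/S+L/Ep] and 4 in DMSO. For all lists here and below, the background of higher calls over time is again 1.55% and 1.18%. By treatment it is 0.00444% at 4 h, 0.0155% at 12 h and 0.0888% in the average, so 0 calls in a short list do not show equal signals. Cxcl13 rose 5.56-fold in [BF/S+L/Ep] and 4.87-fold in DMSO, Cxcl10, an interferon-inducible CXCR3 ligand, 2.56-fold and 2.22-fold, and Cxcl14 2.30-fold and 2.78-fold. Cxcl11 was called in DMSO alone (at least 1.97-fold). Its signal in [BF/S+L/Ep], not called, was 263.2 and 201.4 at 12 h against 91.0 and 123.2 at 4 h. The treatment difference at 12 h minus that at 4 h was called for 0 of the 9.

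Of the 14 measured genes that induce or regulate CXCR2 ligand mRNA, 0 were called by treatment and 3 were called higher over time in both treatments. Treatment differences were positive for 8 of the 14 at 4 h and 9 of the 14 at 12 h (medians 0.04 and 0.07 on the log2 scale). Il1b, encoding interleukin-1β, had 13273.5 and 11555.5 at 12 h against 6072.8 and 5750.3 at 4 h in [BF/S+L/Ep], and 11986.7 and 12568.7 against 6796.9 and 7577.7 in DMSO. Il1a rose 4.35-fold in [BF/S+L/Ep] and 3.04-fold in DMSO, and Nfkbiz, whose product IκBζ acts with NF-κB on a subset of its targets, 2.92-fold and 3.15-fold. By treatment neither was called. At 12 h Il1a had 821.3 and 882.3 with [BF/S+L/Ep] against 564.5 and 582.2 in DMSO. Its signals at 4 h, 162.0 and 236.6 against 123.2 and 288.3, overlapped. Nfkbiz had 1475.5 and 1238.5 with [BF/S+L/Ep] against 1081.1 and 926.3 in DMSO at 12 h, and 445.4 and 482.7 against 321.8 and 313.6 at 4 h. Of the 9 proteases and proteoglycans that process or bind these chemokines, Mmp8, a collagenase of neutrophils, was called by treatment at 12 h and in the average. It had 5975.0 and 6420.3 at 12 h with [BF/S+L/Ep], against 2937.2 and 2741.1 in DMSO (1.13, limma adjusted p = 0.00125). Mmp9 and Sdc1 were called higher over time in both treatments, and Mmp8 in [BF/S+L/Ep]. Mmp9 in DMSO at 4 h was under the reference (90.2 and 94.7). Of the 6 measured neighbours of the gene cluster, 0 were called and Rassf6, Cxcl15, Epgn and Ereg were under the reference on every array.

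Markers of other cells that could carry these chemokines were read beside the family. For Ppbp and Pf4, 11 of 13 listed platelet and megakaryocyte genes were measured and 8 exceeded the reference on 4 or more arrays. The summed signal of all 11 was 2333.6 to 2487.1 with [BF/S+L/Ep] at 12 h against 2447.7 to 2759.8 in DMSO. At 4 h it was 2857.4 to 2913.8 with [BF/S+L/Ep] against 2748.7 to 2884.5 in DMSO. Nfe2 and Vwf made up the largest parts of these sums. None of the 11 was called by treatment. Over time only Nfe2, a transcription factor of the megakaryocyte and erythroid lineages, was called. It fell by 0.74 in [BF/S+L/Ep] and by 0.81 in DMSO on the log2 scale (background of lower calls 1.31% and 0.921%). Time differences were positive for 6 of the 11 genes in [BF/S+L/Ep] (median 0.01) and 7 of the 11 in DMSO (median 0.31). Vwf (523.7 to 622.0), Clec1b (321.9 to 444.2), Itga2b (151.9 to 320.2) and Nfe2 (569.4 to 1196.0) were above the reference on all 8 arrays, and Gp9 (8.2 to 88.3) and Tubb1 (42.0 to 118.6) on 2 of 8. None of 11 measured neutrophil genes, 8 stromal genes or 7 mast cell and basophil genes was called in any contrast, and 5 of the neutrophil genes exceeded the reference on 4 or more arrays. S100a8 (1986.5 to 2977.9), S100a9 (425.6 to 708.1) and Ngp were above it on all 8 arrays, while Elane, Prtn3 and Ctsg were under it on all arrays. Of the 9 macrophage genes, 0 were called by treatment. Over time 3 of them were called higher in [BF/S+L/Ep] (Adgre1, C1qb and C1qa) and 4 in DMSO (those and C1qc), and Mrc1 was called lower in [BF/S+L/Ep]. The summed signal of the 9 was 65464.9 to 69233.1 at 12 h with [BF/S+L/Ep] against 59331.4 to 63297.8 at 4 h, and 69771.2 to 70933.2 against 64075.0 to 66005.5 in DMSO. Marco was under the reference on all arrays. The part of the cells behind any of these marker lists in the treatment and time differences of the chemokines was not tested.

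As a description, the genes most like each member over the 8 arrays were sought among 2634 other genes whose log2 signal varied by at least 1. The points share 4 groups, so a high correlation is not particular to a pair. For example, 105 genes were more like Cxcl1 than Cxcl3 was (r = 0.90). Cxcl2 was closest to Cxcl10 (r = 0.996), Cxcl13 (r = 0.995) and Clec4e (r = 0.991), Cxcl3 to Tnfaip2, Serpinb8 and P2ry14 (r = 0.98 each), and Ppbp to Tnfaip2 and Dnah2 (r = 0.99 each) and Cdc42ep2 (r = 0.98). Pf4 was closest to Spib, Srms and Pim3 (r = 0.97 to 0.98), and Cxcl1 at its main probe set to Trps1, E030024N20Rik and Osbpl3 (r = 0.98 to 0.99). Among members, Cxcl2 and Cxcl3 had r = 0.97, Cxcl2 and Ppbp 0.96, Cxcl3 and Ppbp 0.96, and Pf4 0.88 to 0.93 with the others.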

How the data were processed

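Mouse BMDCs kept 4 h or 12 h under [BF/S+L/Ep] or its solvent were measured on 8 Affymetrix arrays, 2 in each of 4 groups taken from the sample labels. The intensity values are MAS5 signals that the authors deposited on the linear scale, 1 per probe set and array; no version of MAS5 is given in the sources used here. MAS5 subtracts mismatch signal and scales each array to 1 target, so low signals are noisy and a change shared by all genes is lost. Of 45101 probe sets, 64 controls were left out. GEO's platform annotation gave 1 symbol for 34945 probe sets, several for 932 and none for 9160.

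Log2 signals were fitted with 4 group means in limma 3.58.1 (R 4.3.3), and variances were shrunk towards a trend in mean intensity (4 residual and 8.833 prior degrees of freedom), two-sided, with Benjamini-Hochberg adjustment over 45037 probe sets and a threshold of 0.05. Folds with 1 group under the background reference are bounds: the mean of log2 values, with the dim array's value or its reference, whichever is higher. They are bounds for the means of these arrays and have no interval. The p-values beside them belong to the signals without that floor. The fit was tested on simulated data. Sequences were read from RefSeq (GRCm38.p6) with Biopython 1.88, and figures drawn with matplotlib 3.10.9.

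The members and gene lists were chosen with earlier results of these data known. By rule, the text names the 6 members, the listed genes that passed (up to 4 per list and contrast, by smallest p), and the 3 genes most like each member in Pearson's correlation among those above the reference on at least 4 arrays. Alternatives were quantile normalization, median centring, an offset of 50, testing bright probe sets alone, shrinkage with no trend or made robust, a block for the replicate number, a fit to a contrast's own 4 arrays, each array left out and, chosen after seeing the data, the other Cxcl1 probe sets and a reference without 1 receptor probe set.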

Additional observations from a re-analysis of the deposited data

How the results depend on the processing

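Of the member differences under the alternatives, 495 kept their direction and side of the threshold, 48 lost a call, 9 gained one and 6 changed sign. Most of these differences were not called in the main fit and had no call to lose. Leaving out an array outside a contrast also returns the same difference, so these counts do not measure how stable the calls were. The treatment call was lost in 6 of 16 alternatives for Cxcl3 at 4 h, 9 of 16 for Cxcl2 at 12 h and 5 of 16 for Ppbp at 12 h. Without the intensity trend 0 members were called in any contrast (main counts 1 at 4 h, 2 at 12 h, 3 in the average, and 4 each over time), as for all probe sets. With an offset of 50 the members called by treatment were 0 at 4 h and 1 at 12 h. With only the 4 arrays of the contrast 1 was called at 12 h, from fewer samples. With each array left out in turn, 0 to 1 members were called at 4 h and 0 to 2 at 12 h. The changes of sign were all in differences that were not called. Leaving out 1 array, the treatment difference at 4 h ranged from -0.0527 to 0.218 for Cxcl1 and from -0.0533 to 0.3835 for Pf4, both negative without [BF/S+L/Ep] replicate 1 at 4 h. The difference of treatment effects ranged from -0.0603 (without [BF/S+L/Ep] replicate 1 at 12 h) to 0.3052 for Cxcl1 and from -0.0438 (without [BF/S+L/Ep] replicate 2 at 4 h) to 0.393 for Pf4. For Cxcl1 it was also -0.0129 without [BF/S+L/Ep] replicate 2 at 4 h, and with an offset of 50 it was 0.4411 for Cxcl5. The cause was not tested.

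Arrays with the same replicate number shared little deviation: the correlations of same-numbered deviations from the group means lay between -0.03 and 0.11. These values cannot show whether same-numbered arrays came from the same culture or mouse. With the replicate number as a block, members called were 1 at 4 h, 2 at 12 h, 3 in the average, 4 over time in DMSO and 5 in [BF/S+L/Ep], where Cxcl1 was added (0.73, limma adjusted p = 0.0258). Leaving 1 receptor probe set out of the reference put 1 DMSO array at 12 h above it for Cxcl5 in place of 0. Signals near the background reference limit Cxcl5, and 2 arrays a group limit the precision of every value.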
